A study of Mus musculus with 7 samples.

Results

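The genes described here are 10 precursors of neuropeptides: Penk, Pdyn, Npy, Cck, Gast, Gal, Vip, Tac1, Nts and Adcyap1. They were taken by symbol from the deposited expression table, using rows that carry exactly 1 gene symbol and, where a gene had several rows, the one with the highest mean. All 10 were found, each with 1 probe set, among 14807 named genes. The row of a gene was selected on its mean level over the 7 samples, and the genes were chosen by name with earlier knockout against control results of these data known. Their differences below therefore describe these samples and support nothing further.

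The samples were pancreatic islets, small endocrine organs scattered through the pancreas, from mice of a mixed 129 x FVBn x C57BL/6 background. There were 4 samples from control littermates, marked WT and numbered 1 to 4, and 3 from mice with deletion of FoxO1, FoxO3 and FoxO4 in beta cells, the insulin-producing cells, numbered 5 to 7. The FoxO family consists of transcription factors that leave the nucleus when insulin signals. Mice were matched for age and sex within litters, but neither is stated, and the Cre line that drove the deletion is not given in the sources used here. A further mark in the knockout titles, R+KO, is not explained. Whether a sample was 1 animal or a pool is not stated, and a p-value here reflects only how these samples vary, while the number of arrays limits the precision. Islets also hold cells that keep the FoxO genes. In a bulk sample, fewer cells of a type and less RNA per cell cannot be told apart. The 1 comparison of the design, knockout against control, asks how islet gene expression differs when beta cells lack these factors. All values are on the log2 scale, and differences are knockout minus control.

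Neuropeptides are short signalling peptides cut from larger precursors inside secretory granules. Prohormone convertases cut the precursor at pairs of basic residues, carboxypeptidases trim the ends, and other enzymes amidate or cyclise them. The peptides are released with other granule contents and act on G protein-coupled receptors. In islets they come from autonomic and sensory nerve endings and, for several of them, from endocrine cells, and they raise or restrain hormone secretion. Many of their genes are transcribed in response to cAMP and electrical activity.

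The arrays correlated between 0.967 and 0.995 over the named genes, with medians of 7.11 to 7.29 over all probe sets. Controls 3 and 4 stood apart from the other samples: on the first principal component, which held 64.7% of the variance, they lay at 43.2 and 30.3 and the other 5 samples between -29.0 and -3.40. Foxo4 was at 6.16 to 6.71 in knockout and 6.83 to 7.14 in control islets, Foxo3 at 8.63 to 8.73 and 8.74 to 9.05. Both were without overlap, as were 10.9% of all genes. For Foxo3 the nearest values were 8.730 in knockout 7 and 8.739 in control 3, and the difference was -0.16 (SE 0.11). Foxo1 overlapped between the groups, at 9.57, 10.004 and 9.70 in knockouts 5 to 7 and 10.27, 10.24, 9.82 and 9.75 in controls 1 to 4, so that knockout 6 lay above controls 3 and 4. None of the 3 targeted genes passed the test over all genes. Beta cell markers had a mean over 9 of 9 listed genes of 12.02 to 12.26 in knockout and 12.02 to 12.17 in control samples. Differences of single markers ran from -0.24 to 0.39. The groups did not overlap for 2 of 9, 1 higher and 1 lower in knockouts, against 10.9% of all genes.

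Penk encodes proenkephalin, the precursor of Met- and Leu-enkephalin, which act mainly on delta and mu opioid receptors. Its level (probe set 6919320) was 6.69 in control 1, 6.598 in control 2, 6.05 in control 3 and 6.61 in control 4. It was 7.49 in knockout 5, 7.86 in knockout 6 and 7.25 in knockout 7. All 3 knockout samples lay above all 4 controls, and control 3 was below the other controls. The knockout mean was 7.53 ± 0.31 (SD, n = 3) against a control mean of 6.49 ± 0.30 (SD, n = 4). They differed by 1.04 (SE 0.20), or a fold of 2.06 with a 95% interval of 1.51 to 2.82. In limma's fit over all genes its adjusted p was 0.362, and it had the 11th smallest p of 14807. Without controls 3 and 4 the difference was 0.88 (SE 0.18, adjusted p = 0.951).

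Pdyn encodes prodynorphin, the precursor of dynorphins, which act mainly on the kappa opioid receptor. Its level (probe set 6890868) was 9.50 and 9.49 in controls 1 and 2 but 8.32 and 8.33 in controls 3 and 4. It was 8.93 in knockout 5, 8.77 in knockout 6 and 8.77 in knockout 7. The knockout samples lay close together, between the 2 pairs of controls. The knockout mean was 8.82 ± 0.09 (SD, n = 3) against a control mean of 8.91 ± 0.68 (SD, n = 4). They differed by -0.09 (SE 0.33, limma, adjusted p = 0.932) with a 95% interval of -0.83 to 0.66. Without controls 3 and 4 it was -0.67 (SE 0.11), a fold of 0.627, with the 6th smallest p of all genes and an adjusted p of 0.951. The sign was positive without control 1 (0.11) or control 2 (0.11), so the value for prodynorphin rested on which controls were kept.

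**Figure D1:**
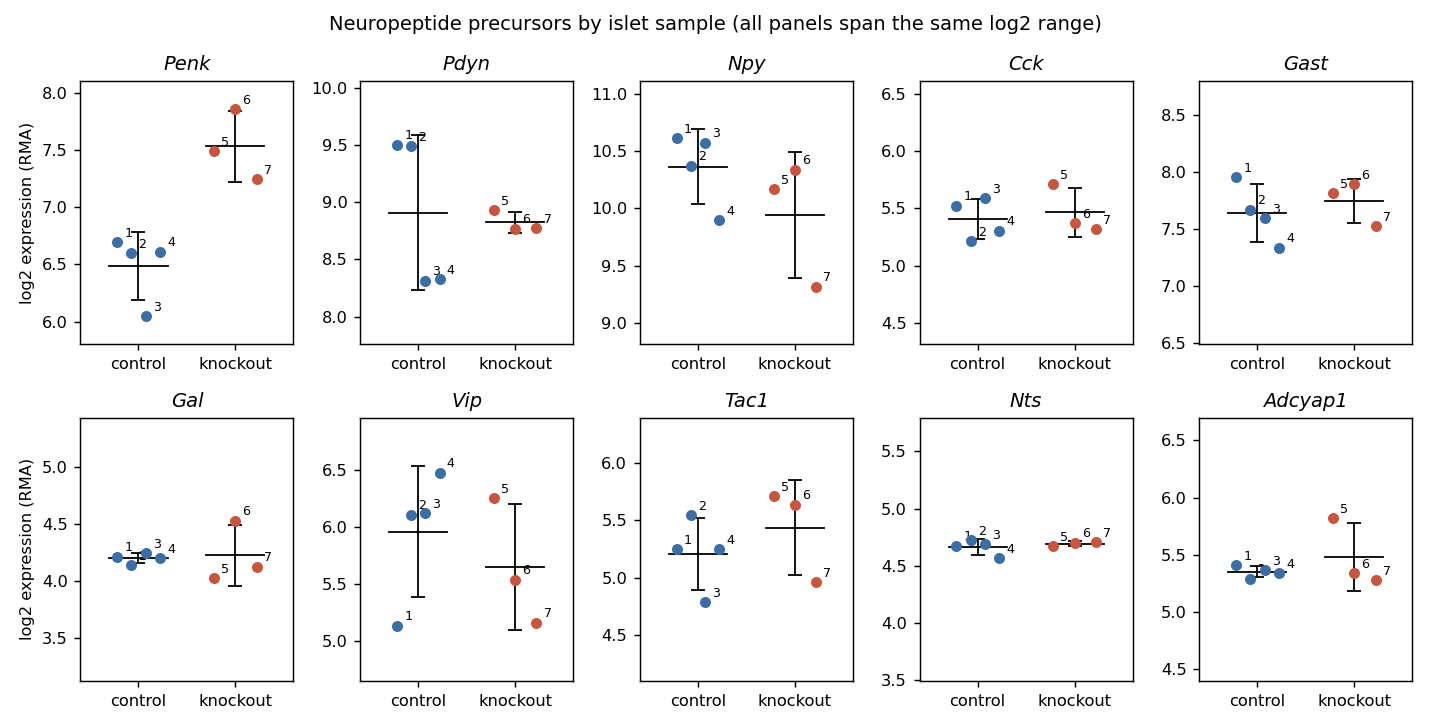
Log2 expression (y axis, RMA values) of the 10 precursors in control (blue, 4 samples) and knockout islets (red, 3 samples), with sample numbers beside the points and black bars for the mean and SD; every panel spans the same log2 range around its own middle. The Penk points of the knockouts (7.25 to 7.86) lie above those of all controls (6.05 to 6.69), Pdyn splits the controls into 2 pairs, and Nts stays within 0.155 over all 7 samples.

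Npy encodes neuropeptide Y, an inhibitory peptide of sympathetic nerves that is also made by immature beta cells. Its level (probe set 6946119) was 10.61, 10.37, 10.58 and 9.90 in controls 1 to 4 and 10.17, 10.34 and 9.31 in knockouts 5 to 7. Knockout 7 was lowest, and the other knockouts lay within the range of the controls. The difference was -0.42 (SE 0.27, limma, adjusted p = 0.481), with a 95% interval of -1.04 to 0.20. Without knockout 7 it was -0.11. Without controls 3 and 4 it was -0.55 (SE 0.29), and then all knockouts lay below both remaining controls.

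Cck and Gast encode cholecystokinin and gastrin, gut hormones with a shared end sequence that act on the same pair of receptors, and gastrin is also made in the fetal pancreas. Cck (probe set 6999522) was at 5.21 to 5.59 in controls and 5.32 to 5.71 in knockouts, a difference of 0.06 (95% interval -0.26 to 0.38). Gast (probe set 6784178) was at 7.34 to 7.95 in controls and 7.53 to 7.89 in knockouts, a difference of 0.11 (95% interval -0.26 to 0.47). For both genes the groups overlapped and limma's adjusted p was 0.886 and 0.805. The sign for Gast turned without controls 3 and 4 (-0.07). Leaving out 1 sample moved Gast between 0.004 (control 4) and 0.21 (control 1 or knockout 7). The sign for Cck turned without control 2 (-0.006) or knockout 5 (-0.06).

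Vip and Adcyap1 encode related peptides, vasoactive intestinal peptide and PACAP, which raise cAMP through shared receptors and, in islets, are released from parasympathetic nerves. Vip (probe set 6771858) was at 5.14, 6.11, 6.12 and 6.47 in controls 1 to 4 and at 6.25, 5.54 and 5.17 in knockouts 5 to 7. Low values occurred in both groups, in control 1 and knockout 7. Its difference of -0.31 (SE 0.35, limma, adjusted p = 0.725) had a 95% interval of -1.11 to 0.49, and it was 0.03 without controls 3 and 4. Leaving out 1 sample moved it between -0.61 (knockout 5) or -0.58 (control 1) and -0.06 (knockout 7). Adcyap1 (probe set 6853121) was at 5.29 to 5.41 in controls and at 5.82 in knockout 5 against 5.34 and 5.28 in knockouts 6 and 7. Its difference of 0.13 (SE 0.14, limma, adjusted p = 0.712) rested on knockout 5, without which it was -0.04.

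Gal, Tac1 and Nts encode galanin, which is released from sympathetic nerves and restrains insulin secretion, the tachykinins substance P and neurokinin A of sensory nerves, and neurotensin, a peptide of gut and brain. Gal (probe set 6870925) was at 4.14 to 4.24 in controls, and its knockout values ran from 4.03 in knockout 5 to 4.53 in knockout 6. The difference was 0.03 (95% interval -0.27 to 0.33), or -0.12 without knockout 6. Tac1 (probe set 6943974) was at 5.25, 5.54, 4.79 and 5.25 in controls 1 to 4 and at 5.71, 5.64 and 4.96 in knockouts 5 to 7. It was lowest in control 3, and its difference of 0.23 (SE 0.23, limma, adjusted p = 0.677) was 0.09 without that sample and 0.04 without controls 3 and 4. Nts (probe set 6776577) was at 4.57 to 4.72 in controls and 4.67 to 4.71 in knockouts, with a difference of 0.03 (95% interval -0.17 to 0.23). Its range over the 7 samples was 0.155, against a median range of 0.535 for all genes, whereas that of Penk was 1.81. RMA gives no detection call, so such a flat, low value does not show whether the transcript is present.

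Of the 10 precursors, 0 passed limma's test over all genes, where 1 of 14807 genes (0.00675%) did. At an unadjusted p under 0.05 there was 1 of 10, Penk, against 13.7% of all genes. The groups did not overlap for 1 of 10, again Penk, against 10.9% of all genes. Both shares are near the background. Differences were positive for 7 and negative for 3, with a median of 0.05 against 0.08 for all genes. Without controls 3 and 4 an unadjusted p under 0.05 was reached by 2 of 10, Penk and Pdyn, against 4.73% of all genes. The groups then did not overlap for 3 of 10 (Penk above, Pdyn and Npy below), against 19.2% of all genes.

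**Figure D2:**
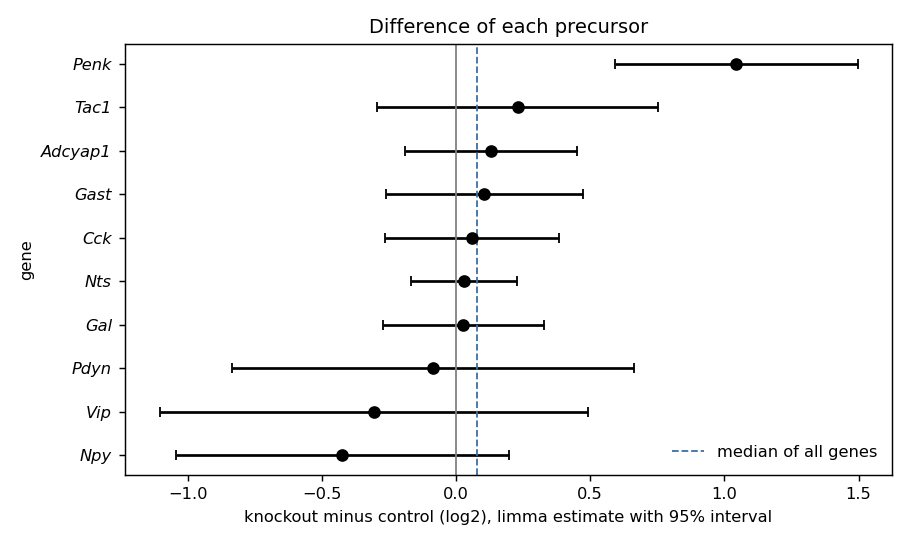
Knockout minus control difference in log2 units (x axis) of each precursor (y axis), as limma's estimate with its 95% interval; the dashed line marks the median of all genes, 0.08. The interval of Penk runs from 0.59 to 1.496, and those of the other 9 genes include 0.

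The upstream sequence of the precursors was examined for elements that bear on the design: the forkhead core GTAAACA, which FoxO proteins recognise, the core CAAAACA of insulin response elements, and the half-site TGACG and full form TGACGTCA of the cAMP response element (CRE), through which many neuropeptide genes respond to activity. RefSeq promoter windows of build GRCm38.p6, from 250 bases before to 50 bases after a start site, were matched by symbol for 9 of the 10 genes, all except Penk, in 11 windows. Both strands were searched, and the half-site lies within the full form. The half-site occurred in 6 of the 9 genes (Vip, Adcyap1, Tac1, Cck, Nts and Gal), against 23.0% of all 27025 genes with a window. The full form occurred in 0 of 9, against 2.03%. The forkhead core occurred in 1 of 9, Cck, against 4.05%, and CAAAACA in 0 of 9, against 7.20%. The stretches that hold upstream matches are shown because they carry these motifs in genes whose levels overlapped between knockout and control; they run 5′ to 3′ on the strand of the gene, with the matched letters in capitals.
Cck, chr9:121495699-121495765, minus strand: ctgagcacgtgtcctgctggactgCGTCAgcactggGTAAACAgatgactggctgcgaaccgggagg
Vip, chr10:5639115-5639167, plus strand: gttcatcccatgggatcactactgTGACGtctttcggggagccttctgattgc
Adcyap1, chr17:93198902-93198954, plus strand: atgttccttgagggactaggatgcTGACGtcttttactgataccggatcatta
Tac1, distal, chr6:7554840-7554892, plus strand: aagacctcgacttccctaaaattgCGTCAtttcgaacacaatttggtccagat
Tac1, proximal, chr6:7554994-7555046, plus strand: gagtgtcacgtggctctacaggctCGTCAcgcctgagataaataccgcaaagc
Nts, chr10:102490556-102490608, minus strand: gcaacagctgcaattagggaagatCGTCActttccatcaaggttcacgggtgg

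In Cck the forkhead core lay at -35 to -29 and the CRE half-site at -47 to -43 from the start, on a single stretch. In Vip and Adcyap1 it continued as TGACGTC, 7 of the 8 letters of the full form, from -79 in Vip and, in Adcyap1, from -91 of one start site, which is -242 of the other. That longer form was not among the elements listed above and was counted in addition. It occurred in these 2 of the 9 genes, against 3.60% of all genes with a window. Its count describes these genes and supports nothing further. Differences of these genes ran from -0.31 for Vip to 0.23 for Tac1, and that of Cck was 0.06. A match of letters is a description and not a binding site, and binding was not measured here.

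Among enzymes that finish neuropeptides, 0 of 11 measured members, of 14 listed, passed the test over all genes, and 1 had an unadjusted p under 0.05, a share below the 13.7% of all genes. That gene was Qpct, which encodes glutaminyl-peptide cyclotransferase, the enzyme that forms the pyroglutamate capping peptides such as gastrin and neurotensin. It was at 5.89, 6.36, 5.68 and 5.89 in controls 1 to 4 and at 6.91, 6.96 and 6.61 in knockouts 5 to 7. All knockouts lay above all controls, as for Penk. The difference was 0.87 (SE 0.17), a fold of 1.83 with a 95% interval of 1.39 to 2.39, and limma's adjusted p was 0.362. It was 0.78 to 1.00 with single samples left out and 0.70 without controls 3 and 4. The list's median difference was 0.07 with 9 positive, against 0.08 with 10132 of 14807 positive over all genes. After quantile normalization it was -0.05 with 3 positive, against 0.04 with 9000 positive over all genes. Without controls 3 and 4 it was -0.04 with 3 positive, against 0.03 with 8663 positive over all genes. The members with the highest mean values were Pcsk1, a convertase of the insulin granule, Cpe, the carboxypeptidase that trims the cut ends, Pcsk1n, an inhibitor of that convertase, and Scg5, a chaperone of a related convertase. Pcsk1 differed by 0.21 (SE 0.17), Cpe by 0.05 (SE 0.12), Pcsk1n by 0.07 (SE 0.13) and Scg5 by 0.11 (SE 0.11). The signs of Pcsk1 (-0.01), Cpe (-0.12) and Pcsk1n (-0.07) turned without controls 3 and 4, where Scg5 differed by 0.02. After quantile normalization Cpe (-0.03), Pcsk1n (-0.07) and Scg5 (-0.08) turned.

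Of the 4 measured granins, of 5 listed, 0 passed the test over all genes and 0 had an unadjusted p under 0.05, against 13.7% of all genes. The groups did not overlap for 2 of 4, against 10.9% of all genes. Chga, chromogranin A, and Scg3, a granin that helps to sort granule cargo, overlapped and differed by -0.01 (SE 0.08) and -0.04 (SE 0.10). Scg2, the precursor of secretoneurin, was at 12.93 to 13.07 in knockouts and 12.72 to 12.88 in controls. Chgb, chromogranin B, was at 12.13 to 12.27 in knockouts and 12.30 to 12.58 in controls. Chgb differed by -0.23 (SE 0.11), or by -0.10 without controls 3 and 4.

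Receptors of these peptides had differences between -0.21 and 0.36. Of 21 measured members of 23 listed, 0 passed the test over all genes, and 9 differences were positive and 12 negative, with a median of -0.03, or -0.02 without controls 3 and 4. Oprd1, the delta opioid receptor to which enkephalins bind, was at 7.15 to 7.54 in knockouts and 7.25 to 7.48 in controls. Its difference of -0.03 (SE 0.12) had a limma adjusted p of 0.938. Oprm1, the mu receptor, differed by 0.07 (SE 0.10) and Oprk1, the kappa receptor, by -0.15 (SE 0.17). Npy2r, a receptor of neuropeptide Y, was the 1 receptor of 21 with an unadjusted p under 0.05, a share below the 13.7% of all genes. It was at 5.22 to 5.31 in knockouts and 4.81 to 5.17 in controls, a difference of 0.25 (SE 0.11, limma, adjusted p = 0.364). Without controls 3 and 4 that difference was 0.18 (SE 0.11). All values of Npy2r, Oprm1 and Oprk1 lay below the lower quartile of every array (5.37 to 5.44). Vipr2, a receptor of VIP and PACAP, differed by 0.36 (SE 0.23), Vipr1, another, by -0.07 (SE 0.13), and Galr3, a galanin receptor, by 0.12 (SE 0.20). The signs of Oprk1 (0.11) and Galr3 (-0.16) turned without controls 3 and 4, where Vipr2 differed by 0.12. After quantile normalization Galr3 differed by -0.008 and Vipr1 by -0.22.

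Other precursors of neuropeptides and peptide hormones gave 0 of 45 measured members, of 52 listed, past the test over all genes and 0 at an unadjusted p under 0.05, against 13.7% of all genes. Their median difference was 0.04, and 31 (68.9%) were positive, as were 68.4% of all genes. The median was -0.007 and 22 were positive without controls 3 and 4, against 0.03 and 8663 of 14807 over all genes. Pomc, another opioid precursor, was at 6.78 to 6.87 in knockouts and 6.47 to 6.75 in controls, a difference of 0.17 (SE 0.10, limma, adjusted p = 0.458). Pnoc, which encodes pronociceptin, differed by -0.05 (SE 0.12). The members with the highest mean values were the islet hormone genes Ppy (pancreatic polypeptide), Iapp (amylin), Sst (somatostatin) and Gcg (glucagon). Ppy differed by 0.16 (SE 0.11), Iapp by 0.03 (SE 0.09), Sst by -0.005 (SE 0.09) and Gcg by 0.02 (SE 0.08), although bright probe sets can understate differences. Leaving out controls 3 and 4 gave 0.06 for Ppy, -0.02 for Iapp, -0.06 for Sst and -0.01 for Gcg. Grp, gastrin-releasing peptide, was at 8.30 in knockout 5 and between 5.28 and 6.39 in the other 6 samples, and was named after its values were seen.

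**Figure D3:**
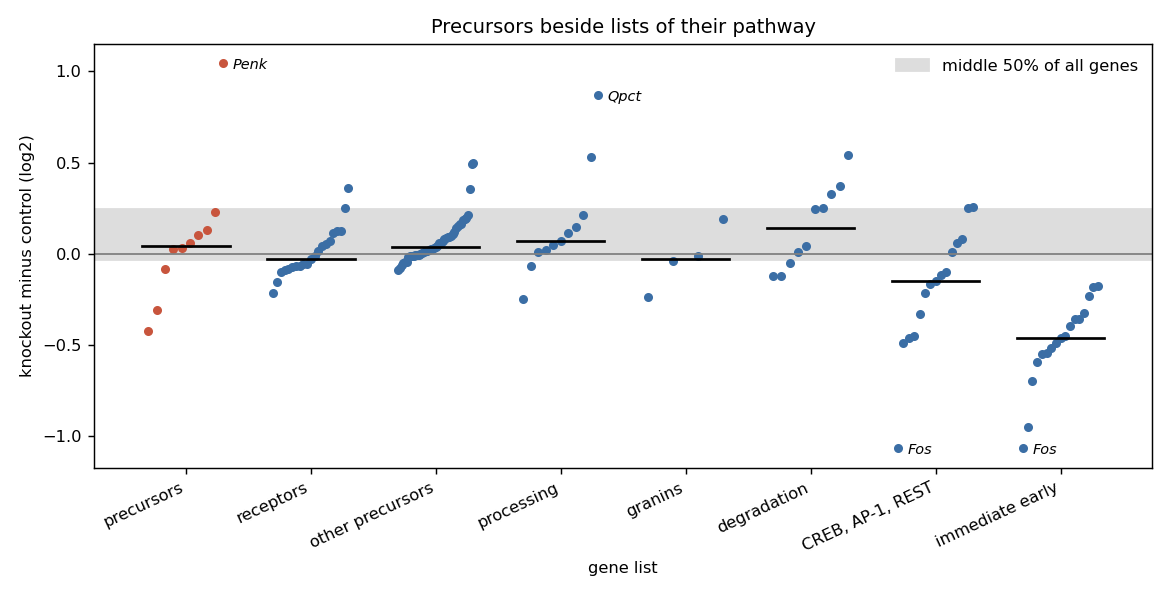
Knockout minus control difference in log2 units (y axis) of every measured gene of 8 lists (x axis), with 1 point per gene, black lines for list medians and a grey band for the middle 50% of all genes. Penk (1.04) and Qpct (0.87) lie above the other genes of these lists, and all 17 immediate early genes lie below 0. Without controls 3 and 4, 10 of these 17 are above 0, as are 8663 of all 14807 genes.

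Peptidases that break down neuropeptides had 0 of 10 measured members, of 12 listed, past the test over all genes and 0 at an unadjusted p under 0.05, against 13.7% of all genes. Their median was 0.14, or -0.05 without controls 3 and 4, against 0.08 and 0.03 for all genes. The members with the highest mean values were Ece1, the endothelin-converting enzyme, the aminopeptidases Anpep and Npepps, and Dpp4, which trims neuropeptide Y and other peptides. They differed by -0.12 (SE 0.13), 0.25 (SE 0.25), 0.01 (SE 0.12) and 0.54 (SE 0.29). With controls 3 and 4 left out Ece1 differed by -0.26, Anpep by -0.12, Npepps by -0.15 and Dpp4 by 0.07, and after quantile normalization Npepps differed by -0.16. Nln, neurolysin, which cleaves neurotensin and dynorphins, was at 7.19 to 7.26 in knockouts and 6.72 to 7.09 in controls, 0.24 (SE 0.11) apart, or 0.14 without controls 3 and 4.

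A list of transcription factors that act on CRE and AP-1 sites also held coactivators of CREB and the repressor of neuronal genes Rest. Of its 15 measured members, of 17 listed, 0 passed the test over all genes. An unadjusted p under 0.05 was reached by 0 of these members, against 13.7% of all genes. Their median was -0.15, or -0.07 without controls 3 and 4 and -0.28 after quantile normalization. All genes had medians of 0.08, 0.03 and 0.04 in these settings. The members with the highest mean values, Atf3, Jun, Jund and Fos, differed by -0.46 (SE 0.47), -0.45 (SE 0.37), -0.17 (SE 0.11) and -1.07 (SE 0.60). These values were 0.11, -0.07, -0.27 and -0.23 without controls 3 and 4. Creb1 differed by 0.25 (SE 0.12) and Rest by 0.08 (SE 0.17), or by 0.13 and -0.15 without those controls.

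Immediate early genes, which are induced quickly by activity or tissue handling, share Fos, Jun, Junb and Atf3 with that list. Differences were negative for 17 of 17 measured members, of 18 listed, with a median of -0.46, while 68.4% of all genes were positive. Past the test over all genes were 0 of 17, and 0 had an unadjusted p under 0.05, against 13.7% of all genes. The groups overlapped for all 17 genes, whereas 10.9% of all genes did not overlap. Their mean was 10.31, 9.68, 11.01 and 11.03 in controls 1 to 4 and 9.90, 9.54 and 10.61 in knockouts 5 to 7. Without controls 3 and 4 the median was 0.05 and 10 differences were positive, against 0.03 and 8663 of 14807 over all genes. Knockout 6, with the lowest of these means, had the highest Penk, and control 3, with one of the 2 highest, had the lowest. Control 4, with the highest mean, was at 6.61 in Penk, beside 6.69 and 6.598 in controls 1 and 2. Knockout 7, with the highest mean of the knockouts, was at 7.25 in Penk. Control 2 (9.68) lay between knockouts 6 (9.54) and 5 (9.90) in that mean. In Penk it was at 6.598, and those knockouts were at 7.86 and 7.49. The part of this state in the Penk values was not tested.

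Markers of nerve and glial cells, which could bring neuropeptide transcripts into an islet sample, overlapped between the groups as lists. The mean over 11 of 12 neuronal markers was 6.71 to 7.11 in knockouts and 6.83 to 6.93 in controls, with knockout 7 lowest and knockout 5 highest. Of these 11, 7 differences were positive and 4 negative, from -0.29 for Isl1 to 0.35 for Nefm. Islet endocrine cells also express Isl1, so this list is not confined to nerve. Without controls 3 and 4 Isl1 differed by -0.05. Nefm, a neurofilament gene, was the 1 of 11 with an unadjusted p under 0.05, a share below the 13.7% of all genes. It was at 8.003 to 8.42 in knockouts and 7.85 to 8.04 in controls, a difference of 0.35 (SE 0.13), or 0.28 (SE 0.15) without controls 3 and 4. The mean over 5 of 8 glial markers was 6.31 to 6.55 in knockouts and 6.23 to 6.47 in controls. Array values have no zero, so it cannot be said which of these markers were absent. Delta cell markers had means of 10.11 to 10.45 in knockouts and 10.22 to 10.32 in controls, and alpha cell markers 10.42 to 10.75 in knockouts and 10.32 to 10.70 in controls. Endothelial markers had negative differences for 5 of 6 genes, with a median of -0.15, and macrophage markers for 5 of 5 measured of 6 listed, with a median of -0.17. Their medians were -0.32 and -0.26 without controls 3 and 4, where that of all genes was 0.03. Of all genes, 68.4% had positive differences. An unadjusted p under 0.05 was reached by 1 of 6 endothelial and 0 of 5 macrophage markers, against 13.7% of all genes. The groups overlapped for every gene of both lists. Endothelial means were 8.65 to 8.84 in knockouts and 8.76 to 9.17 in controls, and macrophage means 7.41 to 7.56 and 7.25 to 7.87. Kdr, a receptor of vascular growth factor, differed by -0.45 (SE 0.17, limma, adjusted p = 0.362), or by -0.34 (SE 0.20) without controls 3 and 4. Acinar, duct, stromal and PP cell means overlapped between the groups. The part of cell composition in the precursor values was not tested.

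The 5 genes whose pattern over the 7 samples was most like that of Penk, by Pearson correlation, were Coil (0.980), 1110051M20Rik (0.976), Elovl4 (0.975), Wdr44 (0.973) and Pih1d1 (0.972). All lay without overlap between the groups, where 10.9% of all genes did. Differences ran from 0.21 for Pih1d1 to 0.83 for Elovl4, an elongase of very long fatty acids. A ranking against Penk, itself without overlap, favours such genes, so their separation is no further result. These values describe a ranking over 7 samples that share the genotype split, and 320 genes had a correlation over 0.9 with Penk.

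**Figure D4:**
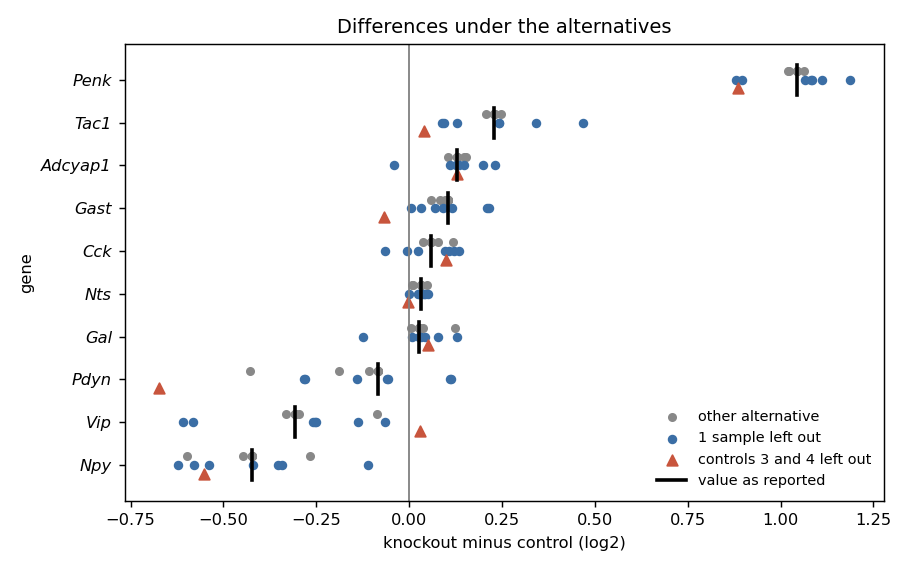
Knockout minus control difference in log2 units (x axis) of each precursor (y axis) as reported (black bar), with 1 sample left out (blue), without controls 3 and 4 (red triangle) and under the other alternatives (grey). Penk stays between 0.88 and 1.19, while Pdyn moves from -0.67 to 0.11.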

How the data were processed

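RNA from 7 islet samples was extracted with Trizol and labelled with biotin by a Nugen protocol, per the labels' protocols. The authors deposited log2 expression values for each probe set and array. Per the submitters' processing notes these came from RMA (background subtraction, normalization between arrays and probe summary), run in Affymetrix Expression Console. Their log2 scale was judged from their range, and neither the version, the settings nor the genome build is given in the sources used here.

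Of 23238 probe sets, 14939 had 1 gene symbol, 989 several and 7310 none in the platform annotation, giving 14807 genes (the highest-mean row of each, 131 genes having several). Of the rows with 1 symbol, 14884 matched RefSeq by Entrez ID, with 0 symbols changed. The fit of knockout against control used limma 3.58.1 under R 4.3.3 (empirical Bayes, two-sided, 7 samples, no covariates), with Benjamini-Hochberg adjustment over all genes at a threshold of 0.05. Standard errors and 95% intervals are those of the moderated fit, without adjustment for the number of genes. The fit was tested on simulated data.

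Members and lists were chosen with earlier results of these data known. All members were named, and from the 7 other lists up to 4 genes with an unadjusted p under 0.05 and up to 4 others by highest mean. Oprm1, Oprk1, Pomc, Pnoc, Nln, Grp, Creb1, Rest, Nefm, Isl1 and Kdr fall outside that rule and were named after their values were seen. The immediate early list is given by its mean. The 5 genes most like Penk were ranked by Pearson correlation over the 7 samples. Alternatives were quantile normalization, centring, leaving out genes dimmer than the median gene, averaging a gene's rows, all rows as features, array weights, a prior that was trended and robust, a test without moderation, a minimum absolute log2 difference of 1, leaving out each sample and, added after seeing the data, leaving out controls 3 and 4. Per-sample columns left unused numbered 0.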

Additional observations from a re-analysis of the deposited data

Results flagged for a closer look

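Of the 10 precursors, examined in the group of 4 controls, 1 had a sample far from the others. Penk was at 6.05 in control 3, where the nearest control was at 6.598, and that gap was 0.851 of the range of the controls, above Dixon's critical value of 0.829. Such a gap arises by chance in about 1 in 20 groups. Without control 3 the difference of Penk was 0.90 (SE 0.16, limma, adjusted p = 0.581).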

How the results depend on the processing

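No precursor passed the threshold under any of the 17 alternatives run (0 of those tested in each). Penk kept its sign in all 15 alternatives that could be run for it, from 0.88 to 1.19 with single samples left out and from 0.88 to 1.06 otherwise, with adjusted p values of 0.173 to 0.951. Npy and Tac1 also kept their signs. The difference of Vip ran from -0.61 to -0.06 and that of Gast from 0.004 to 0.21 with single samples left out. The median difference of the precursors, 0.05, was -0.085 among genes at or above the median level, where 3 of the 10 were left and Penk was not, and ran from -0.000085 to 0.11 with single samples left out. Without controls 3 and 4 the sign turned for Gast (-0.067), Vip (0.030) and Nts (-0.0041). With single samples left out the differences ran from -0.28 to 0.11 for Pdyn, -0.064 to 0.13 for Cck, -0.0011 to 0.051 for Nts, -0.12 to 0.13 for Gal and -0.042 to 0.23 for Adcyap1, each turning sign. The cause was not tested. No paired analysis was possible because the litter of a sample is not given and the groups share no replicate numbers. The arrays give no detection call, so signal over background is unknown.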
